A study of Sus scrofa with 63 samples.

Results

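Solute carriers are the largest family of membrane transport proteins, and each member moves a defined class of small molecules (sugars, amino acids, metals, vitamins, nucleotides or ions) across the plasma membrane, the mitochondrial membrane or the membrane of another organelle. Some let a substrate run down its own gradient, and others couple it to sodium, protons or a counter-substrate. In skin they feed the dividing and differentiating cells of the epidermis, which has no vessels of its own, and they serve the leukocytes and fibroblasts that work in a wound. The genes described here were all those whose symbol in the array's annotation began with SLC, a family number and A, or with SLCO, leaving out SLC11A1, and only probe sets with 1 symbol were used. That gave 113 genes on 170 probe sets, of 6765 genes with 1 symbol and 23999 probe sets tested. Where a gene had several probe sets, as 38 did, the one with the highest mean over the 63 arrays stood for it. The symbols of 3 of the 113 name proteins that are not carriers themselves (SLC2A4RG, SLC9A3R1 and SLC9A3R2), and they were kept because the rule takes them.

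The skin came from female Yorkshire crossbred pigs whose ventral abdomen was exposed to sulfur mustard, an alkylating blistering agent. Exposed sites received 400 µL of the agent for 8 min over lesions of 3 cm, control sites were unexposed skin of the exposed animals, and sham animals were prepared in the same way without agent. Punch biopsies of 8 mm were taken 1, 2, 4, 24, 48, 72, 168, 336 and 514 h later, with 3 exposed arrays, 3 control arrays and 1 sham array at each time, on Affymetrix porcine arrays. The 9 times were also averaged into 3 windows, 1 to 4 h, 24 to 72 h and 168 to 514 h, each with 9 exposed and 9 control arrays, and each biopsy was a whole-tissue sample taken from a different set of animals at each time. The arrays were processed in 3 periods. The first held 1, 24 and 168 h, the second 2, 48 and 336 h and the third 4, 72 and 514 h. Each window held a time of each period. A difference between single times of unlike periods cannot be told apart from a difference between periods.

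All levels below are log2 signals of a probe set, and a change is the exposed mean minus the control mean on that scale, with its standard error. A gene is called where its limma p-value, adjusted by Benjamini-Hochberg over all 23999 probe sets, is under 0.05. The level of a probe set cannot be set against that of another, so genes are compared only in their changes. In their highest group, 84 of the 113 genes averaged at or above 7.8, the median of all values in the table. SLC1A2, SLC1A3, SLC1A6, SLC22A8, SLC23A2, SLC25A46 and SLC9A4 were called in a later window but averaged below 7.8 in every group. They had no test in the fit that left out dim probe sets.

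The mix of cells differed between arrays and between groups. The mean of 17 myeloid marker genes (leukocytes of the monocyte and granulocyte lines) lay between 9.27 and 10.3 in the 9 exposed arrays of 24 to 72 h, against 7.97 to 9.14 in the controls, and 14 of the 17 were called higher both there and over 168 to 514 h. The mean of 6 markers of differentiated keratinocytes, the upper cells of the epidermis, lay between 9.33 and 10.7 in exposed arrays of 24 to 72 h, against 11.6 to 12.5 in controls, and 5 of the 6 were called lower. At 168 h that mean read 8.67, 8.93 and 9.19 in exposed skin, against 12.65, 12.78 and 12.54 in control skin. At 514 h it stood above controls, with 12.98, 12.65 and 13.04 in exposed skin, against 12.24, 12.28 and 12.38 in control skin. The mean of 20 skeletal muscle markers varied more than any other list and ran over 24 to 72 h between 7.02 and 12.7 in exposed arrays and between 10.1 and 13.4 in controls, so biopsies differed in how much muscle RNA they held. Over 168 to 514 h that mean lay between 6.91 and 11.6 in exposed arrays and between 7.06 and 13.3 in controls. In biopsies of this kind fewer cells of a type and less RNA per cell cannot be told apart.

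Few solute carrier genes were called in the early hours, and many from 24 h on. At 1 h no gene was higher and 1 was lower, beside 0.413% of all probe sets higher and 0.788% lower, 1.2% in all. None passed at 2 h, where 0.338% of all probe sets were higher and 0.0542% lower (0.392% in all) and 4 genes had an unadjusted p under 0.05. At 4 h 1 gene was higher and none lower, beside 1.11% of all probe sets higher and 0.342% lower (1.45% in all).

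At 24 h, 19 genes were higher and 13 lower, 28.3% of the 113 beside 27.1% of all probe sets, of which 14.4% were higher and 12.7% lower. The numbers then dropped, to 8 higher and 4 lower at 48 h, 10.6% of the genes, where the array had 5.84% higher and 4.11% lower (9.95% in all). At 72 h 5 genes were higher and 4 lower, 7.96% of the genes, with an array background of 5.4% higher and 4.25% lower (9.65% in all). A second peak stood at 168 h, with 14 higher and 8 lower, 19.5% of the genes beside 17.9% of all probe sets (9.87% higher and 8.06% lower). Both peaks lie in the same processing period, the drops between and after them lie in the others, and the part of the period was not tested. At 336 h 5 genes were higher and 3 lower, 7.08% of the genes, with 2.38% of the array higher and 1.66% lower (4.04% in all). At 514 h 6 genes were higher and 4 lower, 8.85% of the genes, with 3.7% of the array higher and 2.13% lower (5.83% in all). The share of solute carrier genes called thus rose and fell with that of the array from 24 h on. It lay below the array's share at 72 h and above it at the other times from 24 h on. These gaps were not tested, and what follows concerns which of the genes were called.

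**Figure D1:**
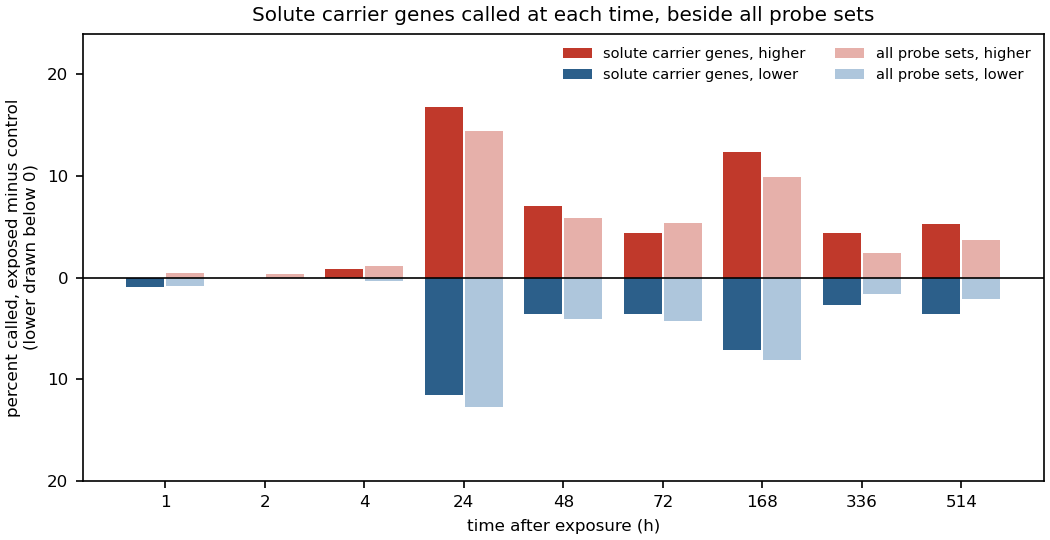
Percent of the 113 solute carrier genes (dark bars) and of all 23999 probe sets (pale bars) called higher (drawn upward) or lower (drawn downward) in exposed than in control skin, by time in hours. Calls peak at 24 h (28.3% of the genes) and again at 168 h (19.5%), and the pale bars peak at the same times. At 336 and 514 h the share of the genes (7.08% and 8.85%) lies above that of all probe sets (4.04% and 5.83%). Both times lie in the same processing period.

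Averaged over windows, 2 genes were higher and 1 lower over 1 to 4 h, where 2.07% of all probe sets were higher and 3.41% lower (5.48% in all). Over 24 to 72 h 24 were higher and 15 lower, 34.5% of the genes beside 35.1% of all probe sets (18.2% higher and 16.9% lower). Over 168 to 514 h 23 were higher and 11 lower, 30.1% of the genes beside 21.9% of all probe sets (12% higher and 9.88% lower). Each gene stood by the brightest of its probe sets, while the array's share counts every probe set, also dim ones and those without a symbol. The shares are thus of unlike sets, here and at the single times, and the late gap was not tested. The median change of the 113 genes over 24 to 72 h was 0.02, against -0.0031 over all probe sets. Of the genes called, 19 were called in both later windows, which is 48.7% of the calls over 24 to 72 h and 55.9% of those over 168 to 514 h, and 18 of these had the same direction. SLC2A3 and SLC25A5 were higher in all 3 windows and SLCO3A1 was lower in all 3, while 59 genes were called in no window. These overlaps between windows were not counted over all probe sets, so they show nothing particular to the solute carriers. With the 3 sham arrays of a window as the control in place of the 9 control arrays, 25 of the 39 calls over 24 to 72 h and 10 of the 34 calls over 168 to 514 h remained. Losses under that setting are named beside each gene below. The exposed-minus-control change differed among the 9 times for 23 of the 113 genes by a moderated F test, beside 18.7% of all probe sets. Those times were spread over the 3 processing periods, whose part was not tested.

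**Figure D2:**
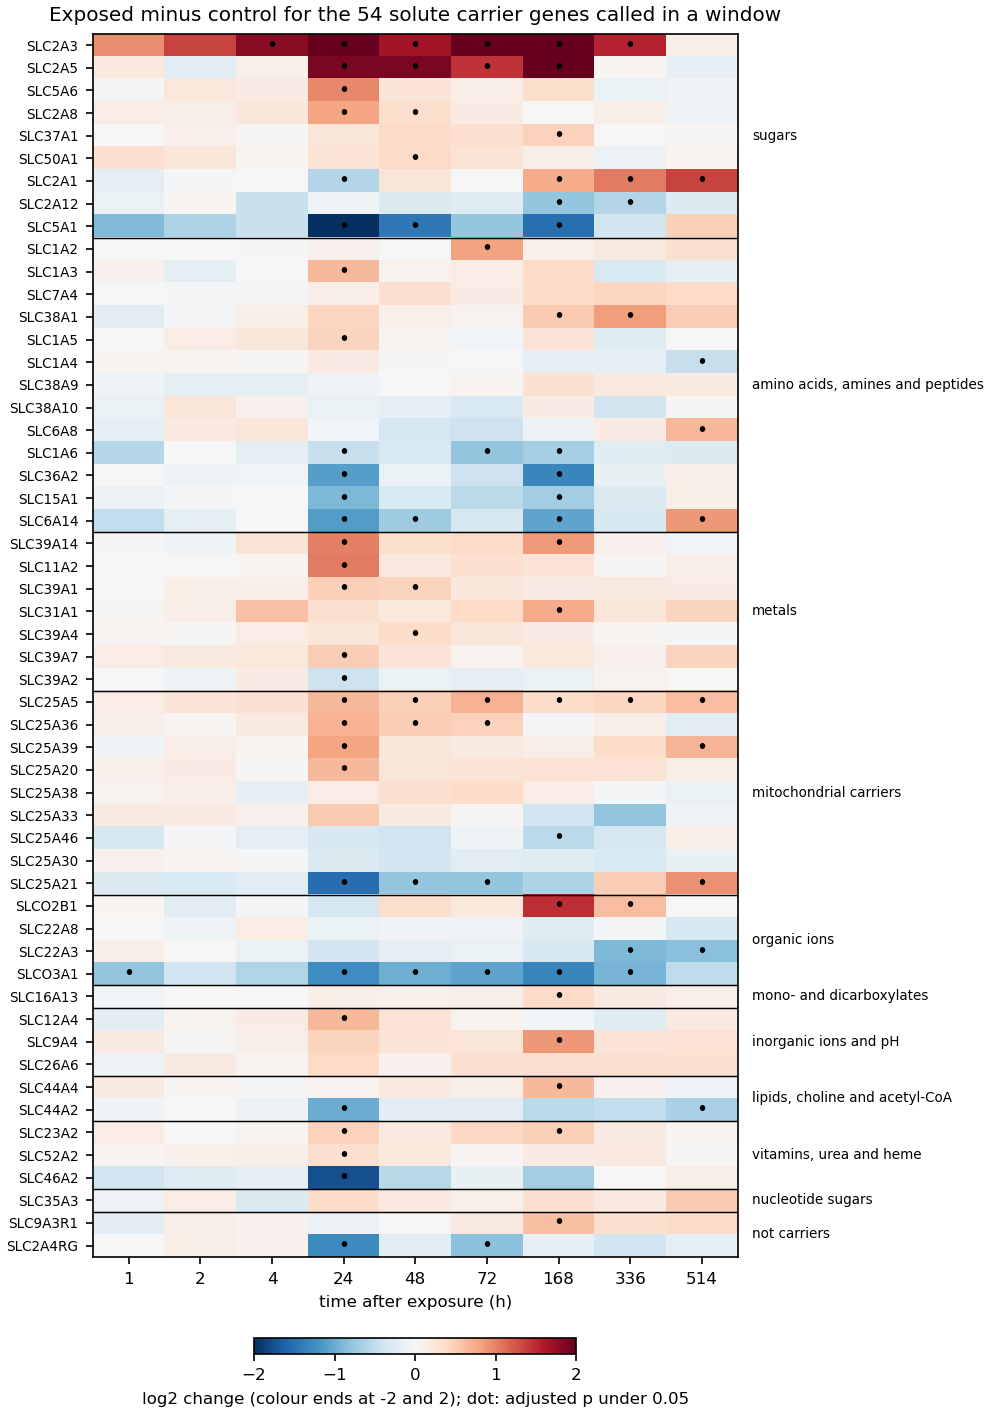
Log2 change (colour, exposed minus control, ending at -2 and 2) of the 54 solute carrier genes called in at least 1 window, in rows grouped by carrier family, at the 9 times in columns; a dot marks an adjusted p under 0.05 at that time. SLC2A3, SLC25A5 and SLCO3A1 carry dots at 6 times each, and the columns of 24 h and 168 h hold the most dots.

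The sugar carrier families (SLC2, SLC5, SLC37, SLC45 and SLC50) held the widest changes. Of 17 genes, 6 were higher and 1 lower over 24 to 72 h, and 3 were higher and 1 lower over 168 to 514 h, with 1 higher over 1 to 4 h. Here as in the groups below, the shares called stand beside 35.1% of all probe sets over 24 to 72 h and 21.9% over 168 to 514 h. The members split by time and direction: SLC2A3, a high-affinity glucose carrier known from neurons and leukocytes, was up from the early hours, SLC2A5, the fructose carrier, from 24 h, SLC2A1, the main glucose carrier of proliferating cells, only late, and SLC5A1, which takes up glucose with sodium, was lower.

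SLC2A3 had levels of 9.18, 9.05 and 10.19 in exposed skin at 1 h, against 8.34, 8.48 and 8.83 in control skin. The groups were already apart, though the change of 0.92 ± 0.36 was not called. At 4 h the exposed arrays read 10.44, 10.80 and 10.53, against 8.36, 8.97 and 9.01 in controls, a change of 1.81 ± 0.36 (adjusted p = 0.00201). At 24 h it read 10.33, 11.61 and 11.02 in exposed skin, against 8.82, 9.07 and 9.00 in control skin. At 168 h the levels were 12.34, 12.48 and 10.98 in exposed arrays, against 7.69, 8.14 and 8.53 in controls. This was the widest change of the 113 genes over the 9 times, 3.81 ± 0.36 or 14.0-fold (adjusted p = 4.3e-10). At 336 h the change was still 1.54 ± 0.36 (adjusted p = 0.00762), a call that was lost (adjusted p = 0.103) when exposed replicate 1 was left out. By 514 h the groups lay together, with 8.82, 8.67 and 8.46 in exposed skin and 8.17, 8.81 and 8.58 in control skin, so its mean change over 168 to 514 h (1.83 ± 0.21) joins 3 unlike times. Over 24 to 72 h it was 1.98 ± 0.21, and the 9 exposed arrays (9.93 to 12.13) did not overlap the 9 controls (8.22 to 9.07).

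SLC2A5 gave no difference early, with a change over 1 to 4 h of 0.02 ± 0.25. At 24 h it read 8.03, 8.32 and 8.82 in exposed skin, against 6.51, 6.44 and 6.57 in control skin, and at 48 h 9.43, 8.81 and 9.34 in exposed skin, against 7.67, 6.99 and 7.27 in control skin. The groups were fully apart at both times. At 72 h the exposed arrays read 8.64, 9.57 and 9.80, against 7.48, 7.09 and 9.10 in controls, where control replicate 3 reached the exposed range. The call at 72 h (1.44 ± 0.44) was lost in a fit of its 6 arrays alone (adjusted p = 0.173) and without any of 4 of the 6. The mean over the window was 1.74 ± 0.25, or 3.34-fold (adjusted p = 5.67e-07), and it differed from that over 1 to 4 h by 1.72 ± 0.36 (adjusted p = 0.000558). At 168 h it read 9.93, 10.55 and 7.92 in exposed skin, against 6.80, 7.07 and 6.98 in control skin, while at 336 h the change was 0.04 ± 0.44 and at 514 h -0.16 ± 0.44. The mean of the 3 late times, 0.80 ± 0.25, was called (adjusted p = 0.0183), but not with sham arrays as the control (0.545, adjusted p = 0.377) or without any of 3 of the 18 arrays. Of SLC2A3 and SLC2A5 alike, the largest changes fell in windows where the myeloid markers above were higher, and the part of those cells in these changes was not tested.

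SLC2A1 was lower at 24 h (-0.59 ± 0.20, adjusted p = 0.0209) and higher at the 3 late times. At 168 h it read 10.31, 10.59 and 10.47 in exposed skin, against 9.75, 9.90 and 9.48 in control skin. At 336 h it read 11.33, 11.03 and 10.52 in exposed skin, against 10.01, 9.93 and 9.82 in control skin. At 514 h it read 11.32, 10.82 and 10.62 in exposed skin, against 9.61, 9.42 and 9.66 in control skin. All 9 late exposed arrays stood above all 9 controls, unlike SLC2A3, which had closed its gap by 514 h. The late change was 1.05 ± 0.11, or 2.07-fold (adjusted p = 4.99e-09), and it exceeded the change over 24 to 72 h by 1.17 ± 0.16 (adjusted p = 6.22e-06). It was the gene with the smallest adjusted p (1.08e-05) in the test of any difference among times.

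SLC5A1 read 7.23, 6.92 and 6.33 in exposed skin at 24 h, against 9.10, 8.71 and 9.22 in control skin, a change of -2.18 ± 0.36, or 4.54-fold lower (adjusted p = 1.02e-05). At 48 h it read 6.76, 7.01 and 7.25 in exposed skin, against 8.26, 8.47 and 8.58 in control skin (-1.43 ± 0.36, adjusted p = 0.0077). At 72 h it read 7.50, 7.46 and 7.49 in exposed skin, against 8.67, 8.10 and 8.02 in control skin, a change that was not called. Every exposed array of the window was below every control, and the mean change was -1.46 ± 0.21 (adjusted p = 4.25e-07). The gene was again lower at 168 h (-1.50 ± 0.36, adjusted p = 0.00242), after which the changes were -0.38 ± 0.36 at 336 h and 0.48 ± 0.36 at 514 h. Its mean change over 168 to 514 h was above that over 24 to 72 h by 1.00 ± 0.30 (adjusted p = 0.0282), a difference whose adjusted p reached 0.0579 when single arrays were left out (control 168 h replicate 3, exposed 24 h replicate 3 or control 336 h replicate 1). Its falls at 24 to 72 h coincided with the fall of the differentiated keratinocyte markers, whose part was not tested.

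**Figure D3:**
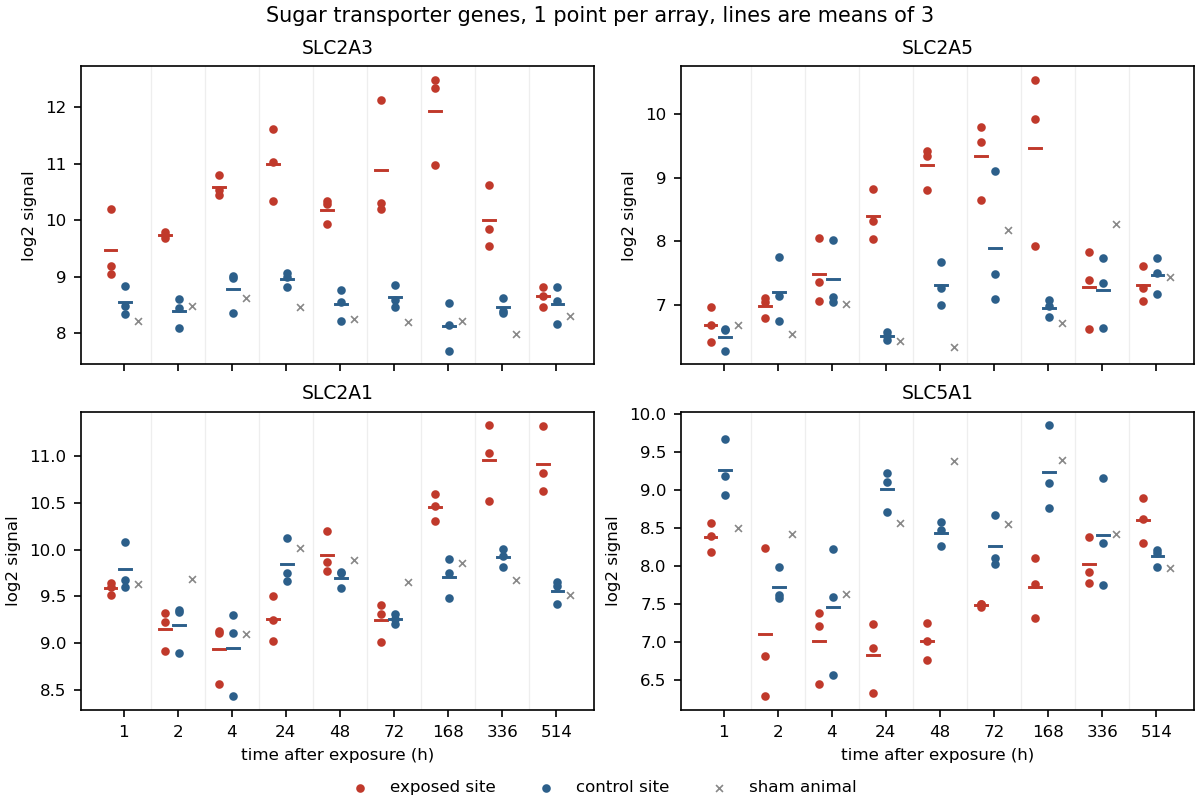
Log2 signal of 4 sugar carrier genes in each array by time in hours, with exposed sites (red) left of control sites (blue) and the sham animal as a grey cross; short lines are means of 3 arrays. SLC2A3 is apart from 1 to 336 h and overlaps at 514 h, SLC2A5 is apart at 24, 48 and 168 h, SLC2A1 is higher in exposed skin at 168 to 514 h and lower at 24 h, and SLC5A1 is lower at 24 to 168 h (not called at 72 h).

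The other sugar family members moved less. SLC2A8, a glucose carrier held inside the cell, rose over 24 to 72 h by 0.44 ± 0.05 (adjusted p = 1.66e-08) and stood at 0.02 ± 0.05 over 168 to 514 h, a difference between windows of -0.42 ± 0.08 (adjusted p = 0.000272). SLC5A6 belongs to the SLC5 family but takes up the vitamins biotin and pantothenate; it rose by 0.45 ± 0.11 over 24 to 72 h and by 0.96 ± 0.19 at 24 h, and the window's call was lost with sham controls (0.377, adjusted p = 0.061). SLC37A1, of the sugar phosphate carriers, rose by 0.32 ± 0.08 over 24 to 72 h, and SLC50A1, a sugar carrier of internal membranes, by 0.31 ± 0.08 with 9 of 9 same-numbered pairs higher. Here and below, a shared number was not shown to mark a shared animal. SLC2A12, a further glucose carrier, fell late, by 0.54 ± 0.08 over 168 to 514 h (adjusted p = 4.97e-06), with exposed arrays between 6.91 and 7.86 and controls between 7.87 and 8.23.

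A list of 17 genes of glycolysis and lactate handling gave 5 higher and 2 lower over 24 to 72 h, and 4 higher and 2 lower over 168 to 514 h, with 1 lower over 1 to 4 h. HK3, a hexokinase of leukocytes, rose by 1.08 ± 0.14 over 24 to 72 h and by 0.60 ± 0.14 over 168 to 514 h. EMB, a chaperone of lactate carriers, rose by 1.02 ± 0.10 over 168 to 514 h, while PFKM, the muscle phosphofructokinase, fell by 1.53 ± 0.57 over 24 to 72 h, where the skeletal muscle markers had a median change of -1.84; with the muscle score in the fit its change was -0.498 (adjusted p = 0.112). PKM, a pyruvate kinase, fell by 0.19 ± 0.06 over 1 to 4 h. The lactate carrier SLC16A3 itself was not called (0.48 ± 0.36 over 24 to 72 h, adjusted p = 0.325), with exposed arrays between 6.86 and 8.72 and controls between 6.46 and 8.38. With the muscle marker score of each array in the fit, its change over 24 to 72 h was 1.04 (adjusted p = 0.000504). Its relative SLC16A13, also of the monocarboxylate family, rose by 0.22 ± 0.07 over 168 to 514 h (adjusted p = 0.0152), but not with sham controls (adjusted p = 0.199).

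Among the 21 carriers of amino acids, amines and peptides 3 were higher and 6 lower over 24 to 72 h, and 5 higher and 3 lower over 168 to 514 h; none was called over 1 to 4 h. The falls of 24 to 72 h were in the window where differentiated keratinocyte markers were lower, and the part of those cells was not tested. SLC6A14, which takes up neutral and basic amino acids with sodium and chloride, read 6.85, 6.77 and 6.61 in exposed skin at 24 h, against 7.81, 8.36 and 7.39 in control skin. At 514 h the order was turned, with 8.18, 8.77 and 8.61 in exposed skin, against 7.74, 7.49 and 7.71 in control skin. The groups did not overlap at either time, and the changes were -1.11 ± 0.24 (adjusted p = 0.000353) and 0.87 ± 0.24 (adjusted p = 0.0216). The differentiated keratinocyte markers had median changes of -1.99 at 24 h and 0.48 at 514 h, and their part was not tested. Over 24 to 72 h it fell by 0.71 ± 0.14, but a second, dimmer probe set of the gene gave 0.05 there and was not called. SLC6A14, SLC2A1 and SLC25A21 were the 3 solute carrier genes called lower at some times and higher at others. The calls of SLC6A14 at 514 h and of SLC2A1 at 24 h were not checked with single arrays left out.

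SLC36A2, a proton-coupled carrier of small amino acids, was lower at 24 h (-1.10 ± 0.27, adjusted p = 0.00156) and 168 h (-1.30 ± 0.27, adjusted p = 0.000467). At 168 h it read 7.13, 7.51 and 7.57 in exposed skin, against 8.84, 8.52 and 8.74 in control skin. Its mean change over 168 to 514 h (-0.44 ± 0.16, adjusted p = 0.0385) lay mainly at the earliest of the 3 times, since it was -0.14 ± 0.27 at 336 h and 0.13 ± 0.27 at 514 h. Leaving out any of 11 of the 18 arrays ended that call, as did the muscle score in the fit or the sham arrays as the control. SLC15A1, the peptide carrier of the gut, fell by 0.58 ± 0.12 over 24 to 72 h (adjusted p = 0.000178), lower in 9 of 9 same-numbered pairs. The 24 to 72 h call of SLC36A2 was also lost with sham controls (-0.339, adjusted p = 0.282). The glutamate carrier SLC1A6 fell by 0.52 ± 0.09 over 24 to 72 h and by 0.40 ± 0.09 over 168 to 514 h, where sham controls gave -0.138 and no call (adjusted p = 0.571).

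SLC38A1, a sodium-coupled glutamine carrier, was the leading late rise of the group. At 336 h it read 9.52, 9.31 and 8.77 in exposed skin, against 8.33, 8.35 and 8.40 in control skin, a change of 0.84 ± 0.17 (adjusted p = 0.00192). Over 168 to 514 h it rose by 0.62 ± 0.10 (adjusted p = 7.64e-06) and was higher in 9 of 9 same-numbered pairs; of its further probe sets, 1 was called higher by 0.44 and 1 gave -0.0057. SLC7A4, of the family of basic amino acid carriers, rose by 0.40 ± 0.10 over the same window, and SLC1A4, which exchanges neutral amino acids, fell by 0.27 ± 0.08; with sham controls neither was called (adjusted p = 0.282 for SLC7A4 and 0.195 for SLC1A4). SLC6A8, the creatine carrier, was the 1 gene called in both later windows with opposite directions, at -0.27 ± 0.09 over 24 to 72 h (adjusted p = 0.0134) and 0.24 ± 0.09 over 168 to 514 h (adjusted p = 0.0466). With sham controls neither window was called (-0.266 and 0.174), and the late call was also lost with the replicate block. At 514 h it read 9.81, 9.56 and 9.43 in exposed skin, against 9.12, 8.86 and 8.81 in control skin, with no overlap (0.67 ± 0.15, adjusted p = 0.00544).

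Unlike SLC1A6, the glutamate carriers SLC1A2 and SLC1A3 were called higher over 24 to 72 h, by 0.30 ± 0.07 and 0.29 ± 0.09. The call of SLC1A3 was lost with the muscle score (0.219, adjusted p = 0.0531) and with sham controls (adjusted p = 0.0509). SLC1A2, which clears glutamate in brain, read 5.23, 5.49 and 6.19 in exposed skin at 72 h, against 4.92, 4.90 and 4.67 in control skin, a change of 0.81 ± 0.12 (adjusted p = 7.37e-06) at signals well below the array median of 7.8. SLC1A3, a relative with the same substrate, rose by 0.65 ± 0.16 at 24 h (adjusted p = 0.00152). SLC3A2, the heavy chain that brings several amino acid exchangers to the cell surface, rose at 24 h by 0.73 ± 0.26 (adjusted p = 0.031) and was not called over the window; it was singled out after its value was seen.

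The 14 genes of a list of the amino acid stress response gave 3 higher over 1 to 4 h, where 5.48% of all probe sets were called in either direction. The list gave 4 higher and 2 lower over 24 to 72 h, and 2 higher and 1 lower over 168 to 514 h. ATF3, a stress-induced transcription factor, rose by 1.95 ± 0.22 over 1 to 4 h, by 1.32 ± 0.22 over 24 to 72 h and by 1.18 ± 0.22 over 168 to 514 h. PPP1R15A, which turns the response down again, rose by 0.95 ± 0.16 over 1 to 4 h, and PSAT1, an enzyme of serine synthesis, fell by 1.03 ± 0.09 over 24 to 72 h. DDIT3, a further transcription factor of the response, was still up by 0.42 ± 0.13 over 168 to 514 h. With the muscle score in the fit, ASNS, ATF4, ATF5, CEBPB, PHGDH and XPOT of the list were called in no window. In that fit CEBPG, MTHFD2 and PSPH were called higher over 24 to 72 h.

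Of the 12 carriers of metals, 6 were higher and 1 lower over 24 to 72 h, 4 were higher over 168 to 514 h and none was lower there. With sham controls none of the 4 late calls remained (SLC31A1, SLC39A1, SLC39A14 and SLC39A7), and over 24 to 72 h those of SLC31A1, SLC39A2, SLC39A4 and SLC39A7 were lost. The median change of the 12 over 24 to 72 h was 0.25, against -0.0031 over all probe sets. SLC39A14, which takes up zinc, iron and manganese and is known as an acute phase gene of mouse liver, read 8.55, 8.76 and 8.76 in exposed skin at 24 h, against 7.69, 7.69 and 7.65 in control skin. The change there was 1.01 ± 0.14 (adjusted p = 5.11e-07). It was higher again at 168 h, with 8.01, 8.54 and 8.19 in exposed skin, against 7.62, 7.35 and 7.22 in control skin (0.85 ± 0.14, adjusted p = 2.05e-05). Neither time showed any overlap, while at 514 h the exposed arrays (7.70, 7.71 and 7.70) lay among the controls (7.54, 7.89 and 7.83). A second probe set of the gene rose by 0.55 over 24 to 72 h, close to the 0.58 ± 0.08 of the one used.

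SLC11A2, the carrier of ferrous iron, read 8.10, 7.67 and 8.15 in exposed skin at 24 h, against 6.94, 7.05 and 6.81 in control skin. The change of 1.04 ± 0.14 (adjusted p = 2.58e-07) stood at that time alone in the window: at 48 h it was 0.19 ± 0.14 and at 72 h 0.34 ± 0.14, neither called. Of its 3 further probe sets 1 was called higher over 24 to 72 h (0.45), and the dimmer others gave -0.0275 and 0.05. SLC39A1, a zinc carrier of the plasma membrane, rose by 0.39 ± 0.05 over 24 to 72 h, higher in 9 of 9 same-numbered pairs. SLC39A4, the zinc carrier of the gut, rose by 0.28 ± 0.06, and SLC39A2, a zinc carrier of keratinocytes, was the only metal carrier called lower, at -0.25 ± 0.08. SLC31A1, the copper carrier, rose by 0.31 ± 0.10 over 24 to 72 h and by 0.48 ± 0.10 over 168 to 514 h, where 9 of 9 same-numbered pairs were higher. Its 24 to 72 h call was lost with the muscle score (0.192, adjusted p = 0.0582), its late change with sham controls was 0.284 (adjusted p = 0.194), and its second probe set was called in neither window. SLC39A7, which releases zinc from the endoplasmic reticulum, rose by 0.25 ± 0.08 over 168 to 514 h, but with the 3 sham arrays as the control the value was -0.0341, and the call was also lost with the muscle score in the fit and without any of 5 of the 18 arrays.

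Proteins that bind, reduce or release metals, a list of 13, gave 7 higher and 2 lower over 24 to 72 h and 6 higher and 1 lower over 168 to 514 h. HMOX1, which frees iron from heme, rose by 2.27 ± 0.13 over 24 to 72 h and by 1.34 ± 0.13 over 168 to 514 h. STEAP4, a metalloreductase, rose by 2.03 ± 0.25 over 24 to 72 h, and LTF, the iron-binding lactoferrin of neutrophil granules, by 2.44 ± 0.27 over 168 to 514 h. LTF is itself a granulocyte gene, and its rise came with the myeloid markers, whose part was not tested.

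Mitochondrial carriers, 21 genes, gave 1 higher over 1 to 4 h, 5 higher and 3 lower over 24 to 72 h and 3 higher and 3 lower over 168 to 514 h. SLC25A5, which exchanges ADP for ATP across the inner membrane, was higher at each time from 24 h on. At 24 h it read 11.79, 11.68 and 11.66 in exposed skin, against 11.17, 11.10 and 10.90 in control skin. At 168 h it read 11.54, 11.39 and 11.30 in exposed skin, against 11.11, 11.09 and 10.93 in control skin. At 514 h it read 11.37, 11.39 and 11.17 in exposed skin, against 10.54, 10.78 and 10.74 in control skin. The groups were apart at each of the 6 times from 24 h on, and the gene was called at all 6. The change was 0.24 ± 0.07 over 1 to 4 h, where the 9 exposed arrays ran from 10.62 to 11.25 and overlapped the controls (10.25 to 11.03). It was 0.61 ± 0.07 over 24 to 72 h (adjusted p = 2.38e-09) and 0.47 ± 0.07 over 168 to 514 h (adjusted p = 1.27e-06). The early call (adjusted p = 0.0257) was lost after a second quantile normalization, with sham arrays as the control and without any of 6 of the 18 arrays.

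SLC25A5 has near-identical relatives, and probes of the family may share signal. SLC25A6, which does the same exchange, gave -0.0428 ± 0.05 over 24 to 72 h. SLC25A4, the form of muscle and heart, gave -1.04 ± 0.49 (adjusted p = 0.1), with exposed arrays between 9.62 and 12.03 and controls between 10.28 and 13.07; with the muscle score in the fit the value was -0.131 (adjusted p = 0.655). Both relatives were singled out after their values were seen.

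SLC25A21, a carrier of oxodicarboxylates of amino acid breakdown, was low from 24 to 72 h and high at the last time. At 24 h it read 8.34, 8.16 and 7.88 in exposed skin, against 9.80, 9.59 and 9.56 in control skin (-1.52 ± 0.24, adjusted p = 5.88e-06). At 514 h it read 10.54, 10.58 and 10.06 in exposed skin, against 9.49, 9.52 and 9.42 in control skin (0.92 ± 0.24, adjusted p = 0.0185). The groups were apart at both times, in opposite directions, though the call at 514 h did not survive the loss of any of 4 of its 6 arrays (adjusted p up to 0.124). Median changes of the differentiated keratinocyte markers were -1.99 at 24 h and 0.48 at 514 h, and the part of those cells was not tested. The mean change over 24 to 72 h was -1.02 ± 0.14 (adjusted p = 2.16e-07), and that over 168 to 514 h exceeded it by 1.29 ± 0.20 (adjusted p = 3.74e-05).

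SLC25A36, a carrier of pyrimidine nucleotides, rose by 0.55 ± 0.08 over 24 to 72 h and gave -0.0401 ± 0.08 over 168 to 514 h, a difference between windows of -0.59 ± 0.11 (adjusted p = 0.00034). SLC25A33, its relative, fell by 0.42 ± 0.16 over 168 to 514 h with an adjusted p of 0.0484, and the call was lost without any of 14 of the 18 arrays and under 4 other settings. SLC25A39, needed for glutathione import, rose by 0.40 ± 0.08 over 24 to 72 h and by 0.39 ± 0.08 over 168 to 514 h; with the 3 sham arrays as the control the later value was -0.0217, and the earlier one was not called (0.272, adjusted p = 0.0733). SLC25A38, which brings in glycine for heme synthesis, rose by 0.28 ± 0.07 over 24 to 72 h, higher in 9 of 9 same-numbered pairs. A second, dimmer probe set of SLC25A38 gave 0.135 there and was not called (adjusted p = 0.228). SLC25A20, which brings in acylcarnitines, rose by 0.39 ± 0.09 over 24 to 72 h, and SLC25A30, a relative of the uncoupling proteins, fell by 0.23 ± 0.08 over 168 to 514 h (adjusted p = 0.0352), a call lost without any of 10 of the 18 arrays, with the transcription date as a block, with the muscle score and with sham controls. Partner proteins of the mitochondrion, a list of 13, gave 4 higher and 2 lower over 24 to 72 h and 5 lower, none higher, over 168 to 514 h. UCP2, an uncoupling protein of leukocytes and many tissues, rose by 0.58 ± 0.13 over 24 to 72 h, and CPT1A, which makes acylcarnitines, by 0.46 ± 0.16. UCP3, the uncoupling protein of muscle, fell by 0.69 ± 0.16 over 168 to 514 h (-0.528 with the muscle score in the fit, adjusted p = 0.00943), and MPC1, a subunit of the pyruvate carrier, by 0.63 ± 0.07.

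The 9 carriers of organic ions moved in both directions. None was higher and 1 was lower over 24 to 72 h, and 1 was higher and 3 were lower over 168 to 514 h. SLCO3A1, which carries prostaglandins and other organic anions, was lower from 1 h, with 10.17, 10.21 and 10.08 in exposed skin, against 11.28, 10.77 and 10.80 in control skin. At 4 h it read 9.41, 9.11 and 9.43 in exposed skin, against 9.74, 10.09 and 9.94 in control skin. These levels did not overlap within either time, but the change of -0.61 ± 0.17 at 4 h was not called. At 24 h it read 9.68, 9.41 and 9.60 in exposed skin, against 10.70, 10.67 and 11.06 in control skin. At 168 h it read 9.38, 9.50 and 9.53 in exposed skin, against 10.65, 10.98 and 10.67 in control skin. Its widest gap was there (-1.30 ± 0.17, adjusted p = 1.89e-07), and at 514 h the change of -0.51 ± 0.17 was no longer called. The mean changes were -1.09 ± 0.10 over 24 to 72 h (adjusted p = 9.54e-12), the smallest adjusted p of the 113 genes in that window, and -0.91 ± 0.10 over 168 to 514 h. Its 3 further probe sets were all called lower in both windows, by 0.66 to 1.03 over 24 to 72 h and by 0.53 to 0.91 over 168 to 514 h. The call at 1 h was lost in a fit of the 6 arrays of that time alone (adjusted p = 0.218) and without control replicate 1 or exposed replicate 3.

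SLCO2B1, a carrier of steroid sulfates and other organic anions, rose at 168 h. It read 10.43, 10.35 and 9.88 in exposed skin, against 8.74, 8.60 and 8.87 in control skin, a change of 1.48 ± 0.18 (adjusted p = 8.21e-08). At 336 h it read 9.63, 9.86 and 9.42 in exposed skin, against 9.08, 8.89 and 9.09 in control skin, and at 514 h 9.33, 9.37 and 9.28 in exposed skin, against 9.29, 9.30 and 9.36 in control skin. The gap thus narrowed over the 3 late times and the groups overlapped at the last.

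SLC22A3, the carrier of organic cations such as catecholamines and histamine, was lower at the last times. At 336 h it read 7.46, 7.41 and 7.91 in exposed skin, against 8.39, 8.36 and 8.75 in control skin, and at 514 h 7.38, 7.31 and 7.32 in exposed skin, against 8.20, 8.44 and 7.89 in control skin. No arrays overlapped at either time, with changes of -0.91 ± 0.23 (adjusted p = 0.0164) and -0.84 ± 0.23 (adjusted p = 0.0246). The sham animal read 8.04 at 336 h and 7.67 at 514 h, below all 3 controls of its time at both. The mean change over 168 to 514 h was -0.69 ± 0.14 (adjusted p = 0.000174), and with the sham arrays as the control it was -0.351 and not called (adjusted p = 0.269). The call at 336 h was lost with the date of in vitro transcription as a block and without any of 3 of its 6 arrays, and that at 514 h without any of 5 of 6. SLC22A8, a carrier of organic anions, fell by 0.20 ± 0.06 over the same window, a call lost with sham controls (-0.132, adjusted p = 0.405) and without control 168 h replicate 1 or exposed 168 h replicate 2.

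**Figure D4:**
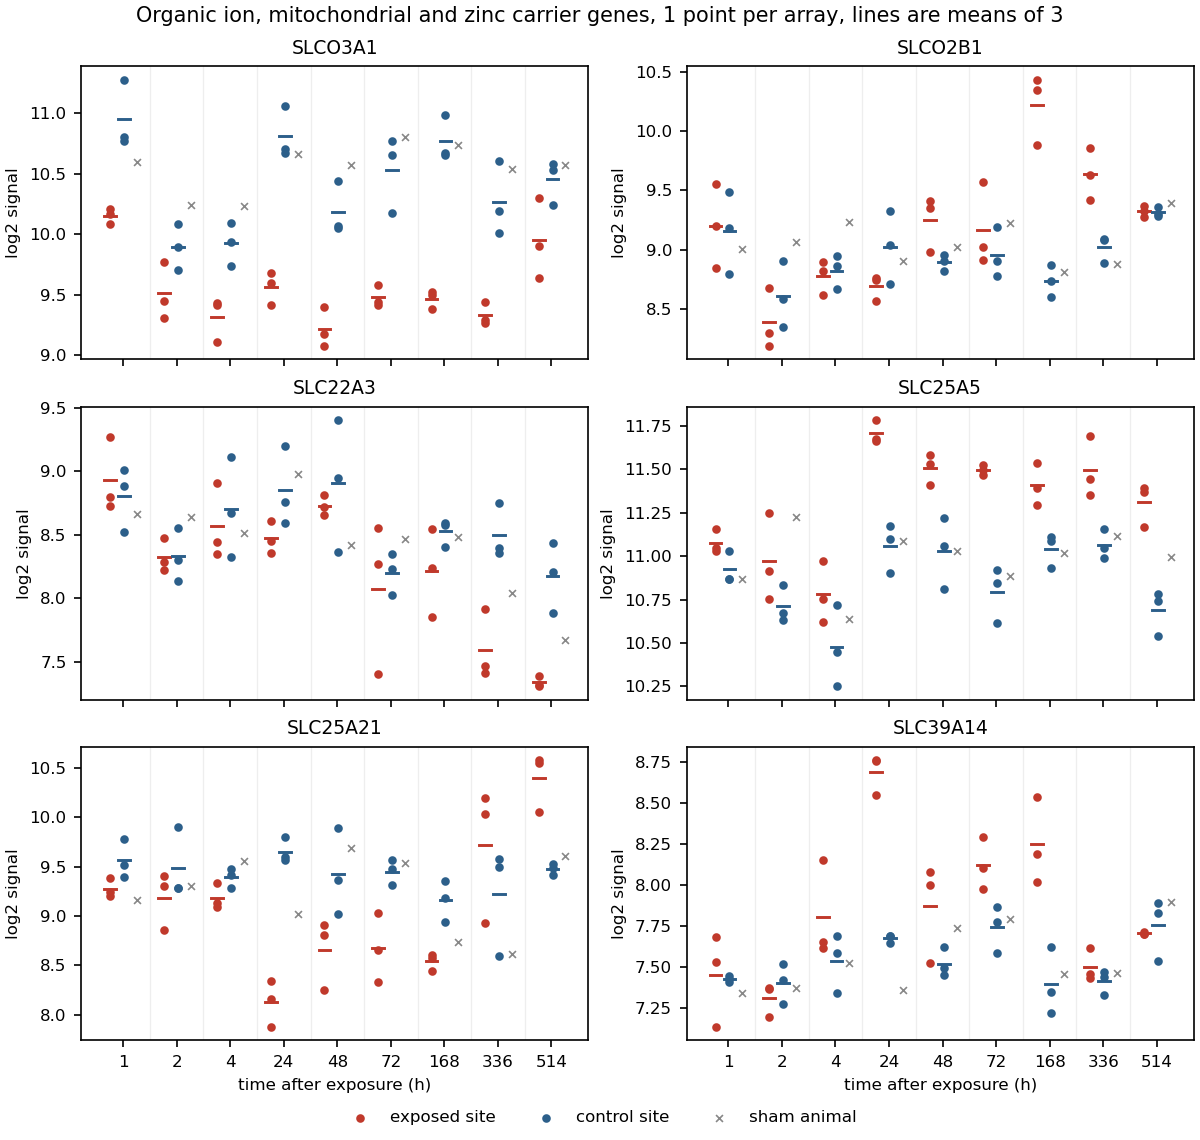
Log2 signal of 6 further solute carrier genes in each array by time in hours, with exposed sites (red) left of control sites (blue) and the sham animal as a grey cross; short lines are means of 3 arrays. SLCO3A1 is lower in exposed skin with no overlap at 7 of the 9 times (not at 2 and 514 h), SLC25A5 is higher from 24 h on, SLC25A21 turns from lower to higher, and the sham animal of SLC22A3 lies between the groups at 336 and 514 h.

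Carriers of inorganic ions and of protons, 11 genes, gave 2 higher in each later window and none lower. SLC12A4, which carries potassium and chloride out of the cell, rose by 0.34 ± 0.09 over 24 to 72 h, but with sham controls the change was 0.0817 and not called (adjusted p = 0.721). SLC9A4, a sodium and proton exchanger, rose by 0.47 ± 0.14 over 168 to 514 h (not called with sham controls, adjusted p = 0.0901), and SLC26A6, an anion exchanger, by 0.32 ± 0.09, with exposed arrays between 7.65 and 7.92 and controls between 7.42 and 7.56. The pumps that build the gradients these carriers use were listed beside them. Of 17 subunits of the sodium pump and of the proton pump of vesicles, none was called over 1 to 4 h. Over 24 to 72 h 13 of the 17 were higher and 3 lower, beside 18.2% and 16.9% of all probe sets. Over 168 to 514 h 10 were higher and 1 lower, beside 12% and 9.88% of all probe sets. FXYD5, a modulator of the sodium pump, rose by 1.17 ± 0.09 over 24 to 72 h and by 0.90 ± 0.09 over 168 to 514 h. FXYD3, a modulator made in epithelia, fell by 0.87 ± 0.14 over 24 to 72 h, and ATP1B3, a sodium pump subunit, rose by 0.74 ± 0.09 over 168 to 514 h. With the muscle score in the fit, most of the rises over 24 to 72 h were of proton pump subunits. In that fit and window the sodium pump genes were split. ATP1B1 (-0.279), FXYD2 (-0.307) and FXYD3 (-0.929) were called lower, and ATP1B3 (0.257) and FXYD5 (1.15) higher.

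The remaining groups were small. Of 6 carriers of lipids, choline and acetyl-CoA 1 was lower over 24 to 72 h, and 1 was higher and 1 lower over 168 to 514 h. The falls in both windows were of SLC44A2, a choline carrier, at -0.48 ± 0.11 and -0.56 ± 0.11, and its 2 further probe sets were called lower in both windows too. Its late exposed arrays (8.87 to 9.39) lay below all late controls (9.54 to 9.90), though with the sham arrays as the control the late change was -0.46 (adjusted p = 0.0541). SLC44A4, of the same family, rose by 0.22 ± 0.07 over 168 to 514 h, a call lost with the muscle score (adjusted p = 0.0564), with sham controls (0.142, adjusted p = 0.397) and without control 168 h replicate 3 or control 514 h replicate 1. SLC27A1, a fatty acid carrier, was the widest change of this group over 1 to 4 h at -0.0677 ± 0.06 and was not called.

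Of 6 genes in the families for vitamins, urea and heme 2 were higher and 1 lower over 24 to 72 h, and 1 was higher over 168 to 514 h. SLC46A2, of the folate carrier family, read 6.64, 7.34 and 6.80 in exposed skin at 24 h, against 8.44, 8.61 and 9.01 in control skin. The change was -1.76 ± 0.27, or 3.38-fold lower (adjusted p = 3.07e-06), and at 72 h it was -0.15 ± 0.27. The median change of the differentiated keratinocyte markers was -1.99 at 24 h and -2.82 at 72 h. The part of those cells in the change of SLC46A2 was not tested. SLC23A2, the vitamin C carrier, rose by 0.35 ± 0.08 over 24 to 72 h, though not with sham controls (0.269, adjusted p = 0.0753). SLC52A2, the riboflavin carrier, rose by 0.19 ± 0.07 (adjusted p = 0.0247), a call lost with the muscle score in the fit, with sham arrays as the control and without any of 7 of the 18 arrays. Of the nucleotide sugar carriers SLC35A3, which brings UDP-GlcNAc into the Golgi, rose by 0.34 ± 0.11 over 168 to 514 h, a call lost with the muscle score (adjusted p = 0.0761), with sham controls (0.107, adjusted p = 0.744) and without control 168 h replicate 3. None of 3 nucleoside carriers was called in any window, and the widest change among them was that of SLC29A1, at 0.19 ± 0.10 over 24 to 72 h.

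Of the 3 proteins that are no carriers, SLC2A4RG, a transcription factor named for its action on the muscle and fat glucose carrier, read 8.58, 8.61 and 8.50 in exposed skin at 24 h, against 9.79, 9.79 and 9.90 in control skin. The change of -1.27 ± 0.16 had an adjusted p of 1.24e-07. At 72 h it was -0.82 ± 0.16, a call that a fit of that time's 6 arrays alone did not give (adjusted p = 0.122). SLC9A3R1, a scaffold of membrane carriers, rose by 0.44 ± 0.09 over 168 to 514 h, but not with sham controls (0.249, adjusted p = 0.22).

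**Figure D5:**
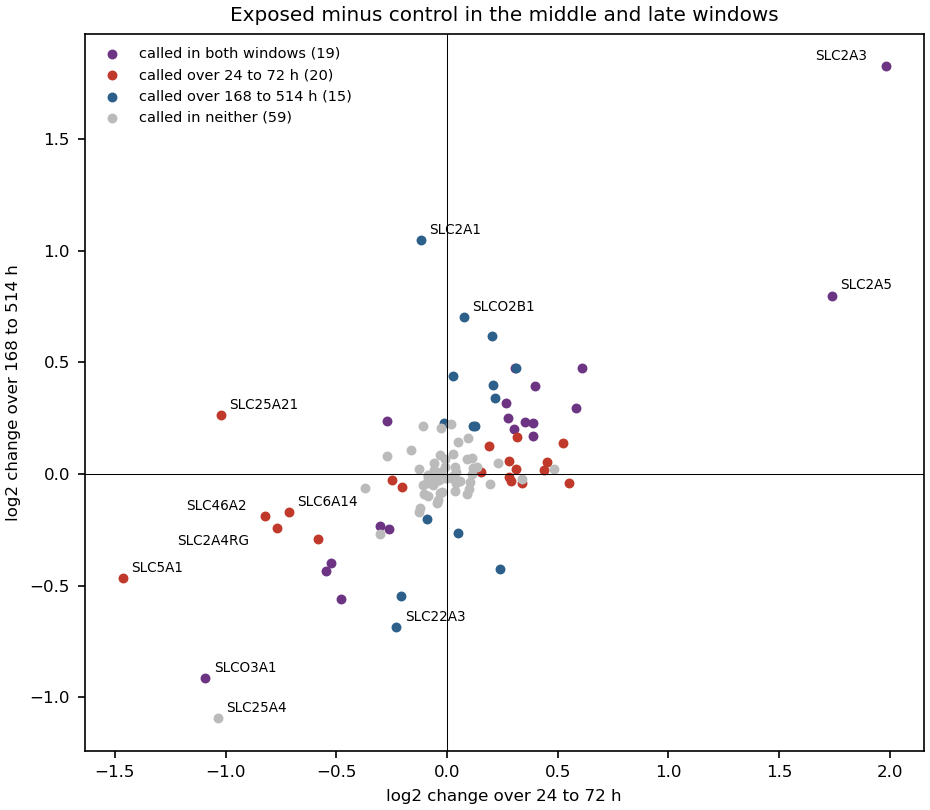
Mean log2 change (exposed minus control) of the 113 solute carrier genes over 24 to 72 h (horizontal) and 168 to 514 h (vertical), 1 point per gene, coloured by the window or windows in which it was called. SLC2A3 lies high in both, SLC2A1 on the late axis at 1.05, SLC5A1 at -1.46 on the earlier axis, and SLCO3A1 low in both.

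Between successive windows, 9 genes moved up and 6 down when 24 to 72 h was set against 1 to 4 h (13.3% of the genes, beside 16.5% of all probe sets, 10.1% up and 6.43% down), and 7 up and 3 down when 168 to 514 h was set against 24 to 72 h (8.85% of the genes, beside 8.45% of all probe sets, 4.45% up and 4% down). Between sham animals and control sites, averaged over the 9 times, no solute carrier gene was called by limma and 14 had an unadjusted p under 0.05, beside 0.0208% of all probe sets called, 0% higher and 0.0208% lower.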

How the data were processed

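RNA (10 µg) from pig skin was hybridised to 63 arrays, 27 exposed, 27 control and 9 sham. Log2 signals, 1 for each probe set, were deposited; the authors used RMA, and Partek is named too, per the submitters' processing notes, without versions. RMA compresses changes of dim probe sets. Values ran from 4.05 to 14.5 and array medians from 7.75 to 7.86, so nothing was rescaled. Arrays have no read depth, and their number limits the precision; replicate arrays differed from each other with an SD of 0.231 to 0.583.

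Of 24123 probe sets 124 controls were left out. Symbols came from the supplied annotation, where 10099 probe sets had 1 symbol, 198 several and 13826 none listed; 111 of the 113 genes matched RefSeq by gene number. Limma 3.58.1 (R 4.3.3) fitted 1 mean for each of 27 groups over all arrays (36 residual and 3.24 prior degrees of freedom), two-sided, with Benjamini-Hochberg adjustment over 23999 probe sets, after tests on simulated data. Sham groups of 1 array were taken to vary like the rest. Carrier groups follow family numbers. Named were called genes: per window the 10 largest rises and falls with 1 sign at its times, per time the 2 largest each way, per window difference the 3 largest each way, up to 3 per carrier group and window (the largest where none was called), and 2 per pathway list and window. Further genes (such as SLC6A8, SLC37A1, SLC50A1 and SLC25A38) and single times (such as SLC6A14 and SLC39A14 at 24 h) fall outside these rules. They were picked with their values in view. Results of single genes were checked with arrays left out only where the rules took them. The genes and lists were chosen with earlier results of these data known.

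The 3 exposed and 3 control arrays of a time came from 3 animals per the design text. Same-numbered arrays were not shown to share an animal, and arrays 1 and 2 of a group share a sacrifice day, so a number marks no day of its own: 21 of 27 exposed and control pairs had deviations correlated above 0.1. Alternatives were a replicate block, the date of in vitro transcription as a block, the muscle score as a covariate, dim probe sets left out, quantile normalization again, an intensity trend in the variance, the mean of a gene's probe sets, sham arrays as the control, fits of a time's 6 arrays alone and each array left out. Promoters were not searched, because no sequences were used here.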

Additional observations from a re-analysis of the deposited data

Results flagged for a closer look

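Between windows the exposed-minus-control change of 12 named results differed by the test of the difference itself, with the 24 to 72 h window set against 1 to 4 h, and then 168 to 514 h against 24 to 72 h. In the first setting the change of SLC2A5 was higher by 1.72, that of SLC39A14 by 0.51 and that of SLC11A2 by 0.51 on the log2 scale, with adjusted p-values of 0.000558, 0.0013 and 0.00133. SLC2A4RG (-0.85, adjusted p = 1.49e-05), SLC25A21 (-0.76, adjusted p = 0.00615) and SLC15A1 (-0.54, adjusted p = 0.025) moved down there.

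From 24 to 72 h on to 168 to 514 h the change moved up for SLC25A21 (1.29), SLC2A1 (1.17) and SLC5A1 (1.00). It moved down for SLC25A36 (-0.59), SLC2A8 (-0.42) and SLC11A2 (-0.39). The last of these, with an adjusted p of 0.0267, reached 0.0518 when single arrays were left out (exposed 168 h replicate 3, exposed 24 h replicate 3, control 72 h replicate 1 or exposed 72 h replicate 3).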

How the results depend on the processing

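With each array of a comparison left out in turn, between 0 and 2 solute carrier genes were called at 1 h and none (0) at 2 h. The range was 1 to 2 at 4 h, 24 to 31 for the 24 h arrays, 6 to 13 for 48 h and 6 to 11 for 72 h. For the late times it was 17 to 21 (168 h), 3 to 9 (336 h) and 4 to 9 (514 h). The windows gave 2 to 5 (1 to 4 h), 36 to 41 (24 to 72 h) and 26 to 35 (168 to 514 h), and the window differences 13 to 19 and 8 to 15. The replicate block, for which same numbers may not mark a shared animal (21 of 27 pairs correlated above 0.1, from -0.378 to 0.688, and 20 of 27 exposed arrays correlated best with their own number), called 2 (1 h), 3 (4 h), 14 (72 h), 13 (336 h), 16 (514 h) and 7 (1 to 4 h), with 25 and 24 for the window differences; over 24 to 72 h it called 44, all 39 of the main fit among them. The muscle score as a covariate called 2 at 1 h and 2 at 4 h. Leaving out dim probe sets called 3 at 4 h. A time's 6 arrays alone called 0 at 1 h, 6 at 48 h and 5 at 72 h, with fewer degrees of freedom. Sham arrays as the control, 3 against 9, called 10 over 168 to 514 h, all 10 among the 34. Of 69 named window results read with that control, 5 were turned round, of which the 2 late ones had been called. They were SLC27A1 (0.0177), SLC31A1 (-0.0148) and SLC35A4 (0.0044) over 1 to 4 h, and SLC25A39 (-0.0217) and SLC39A7 (-0.0341) over 168 to 514 h. Changes outside the named results were turned round as well, some by more. SLC30A5 over 24 to 72 h gave 0.0251 against control sites and -0.4053 against sham arrays. SLC25A1 over 168 to 514 h gave 0.162 and -0.3233, and neither gene was called in either fit. The cause was not tested. The planned promoter search was not run.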

Other observations

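A list of 13 genes of the ABC transporter family was read beside the solute carriers. Most such proteins pump their substrates with ATP, but ABCF1 and ABCF2 are not membrane transporters. The list gave none called over 1 to 4 h, 5 higher and 2 lower over 24 to 72 h and 1 higher and 1 lower over 168 to 514 h. ABCF2 rose by 0.63 ± 0.09 over 24 to 72 h and by 0.30 ± 0.09 over 168 to 514 h. ABCA1, which exports cholesterol, rose by 0.62 ± 0.21 over 24 to 72 h. ABCD3, a transporter of the peroxisome, fell by 0.30 ± 0.08 over 168 to 514 h. Adipocyte markers were lower late, with 7 of 8 called over 168 to 514 h.

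Some genes gave another answer on a dimmer probe set, and these were singled out after their values were seen. SLC33A1, the acetyl-CoA carrier of the endoplasmic reticulum, was not called over 24 to 72 h on the probe set used (0.03 ± 0.09), while 2 others rose by 0.58 and 0.48. SLC7A7, a carrier of basic amino acids known from leukocytes, gave 0.06 ± 0.05 on the probe set used, and its other rose by 0.60 (adjusted p = 6.3e-08). No gene had probe sets called in opposite directions in the same window.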
